A study of Mus musculus with 24 samples.

Results

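The genes described here are 34 genes of fatty acid oxidation and ketone body metabolism, with their regulators and a pair of transcripts known to follow the supply of fatty acids, measured in the brains of mice fed 4 diets. They were chosen by name and read from the probe set (the group of array probes that reports 1 gene) that was annotated to that gene alone and had the highest mean over the 24 arrays. Of the 34 genes, 33 had such a probe set among the 18193 genes that had one; Ucp2, an uncoupling protein of the inner mitochondrial membrane, did not in the annotation used here. The level of 30 of them passed a minimum of 4.069 on the log2 scale, the median of all probe sets, and these 30 were tested among 13839 features (genes and unannotated probe sets). The other 3 lay below it on every diet: Acox3, a peroxisomal acyl-CoA oxidase, had diet means of 3.77 to 3.90, Ehhadh, the peroxisomal bifunctional enzyme, of 3.11 to 3.18, and Ppara, the fatty acid receptor that drives this pathway in liver, of 3.72 to 3.91.

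The samples were right cerebral hemispheres of female mice labelled strain NMR-1., 8 weeks old at the start, with no genetic alteration named, taken after 2 weeks on 1 of 4 diets, 6 mice per diet and 1 array per mouse. The chimpanzee diet was made of vegetables, fruit and yogurt, the cafeteria diet of cooked canteen meals and the fast food diet of restaurant fast food, and the pellet diet was the chow on which all of the mice had been raised. Cafeteria and fast food are called the human diets below, and their difference from chimpanzee is that of their mean. The arrays carry a label of batch 1 or batch 2, the batches in which the RNA was processed, with 3 mice of each diet in each. A hemisphere holds all cell types of the forebrain, so that fewer cells of a type and less RNA per cell cannot be told apart in these values.

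In fatty acid oxidation, acyl chains are linked to carnitine, carried across the inner mitochondrial membrane and shortened by repeated rounds of dehydrogenation, hydration, dehydrogenation and thiolysis, with the electrons passed on through electron transfer flavoprotein. The liver turns the resulting acetyl-CoA into ketone bodies during fasting or on fat-rich diets, and the brain, which burns mainly glucose and little fatty acid, takes them up and converts them back. Fatty acid oxidation in brain takes place largely in astrocytes, whereas neurons use ketone bodies readily.

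The arrays did not all behave as their labels would have it, and this bears on each result with pellet arrays. The 18S ribosomal RNA control lay between 5.87 and 6.58 in the 9 non-pellet arrays of batch 1 and between 4.88 and 5.15 in the 9 of batch 2, but between 4.96 and 5.51 in the 3 pellet arrays of batch 1 and between 5.92 and 6.42 in the 3 of batch 2. The pellet arrays thus ran against the label in this measure. Pellet batch 2 replicate 1 stood apart, with a median correlation of 0.82 with the other arrays, where the next lowest had 0.968, and an SD over probe sets of 1.58, where the others had 1.81 to 2.06. The methods left out 1 pellet brain sample because its RNA was highly degraded, without naming it, and all 6 were used here. The results with pellet arrays therefore include that sample if its array is among the 6. Whether it is the array that stood apart is not stated. Markers of brain were present: all 6 neuron, all 6 astrocyte and all 5 microglia genes looked up passed the minimum level. Of the markers of other tissues with a probe set, 0 of 2 for fat, 1 of 3 for liver and 2 of 3 for muscle passed it.

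No gene of fatty acid oxidation or ketone metabolism was called in brain when human diets were set against the chimpanzee diet. None of the 30 genes passed an adjusted p of 0.05 (limma, Benjamini-Hochberg over all features), and 0% of all features did. At an unadjusted p under 0.05 there was 1 gene, Pdk4, or 3.33% of the 30, where 2% of all features were. This fit to all arrays takes the same batch difference for every diet. The pellet arrays had the opposite batch difference in many features, as given below, and this went into the spread of the fit. Its p-values thus do not rest on the compared diets alone. When the pellet arrays were left out, 0 of the 30 genes and 0.0506% of all features passed the adjusted p. The median log2 difference of the 30 genes, human minus chimpanzee, was 0.01, and that of all features was 0.01. In 26 of the 30 genes the range of the chimpanzee, cafeteria and fast food means was smaller than the smallest SD among these diets. These SDs are over both labelled batches and so hold the batch difference as well as the spread between mice. In 29 genes the range was under 0.25 on the log2 scale, with a median range of 0.0872. Neither count was made over all features.

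**Figure D1:**
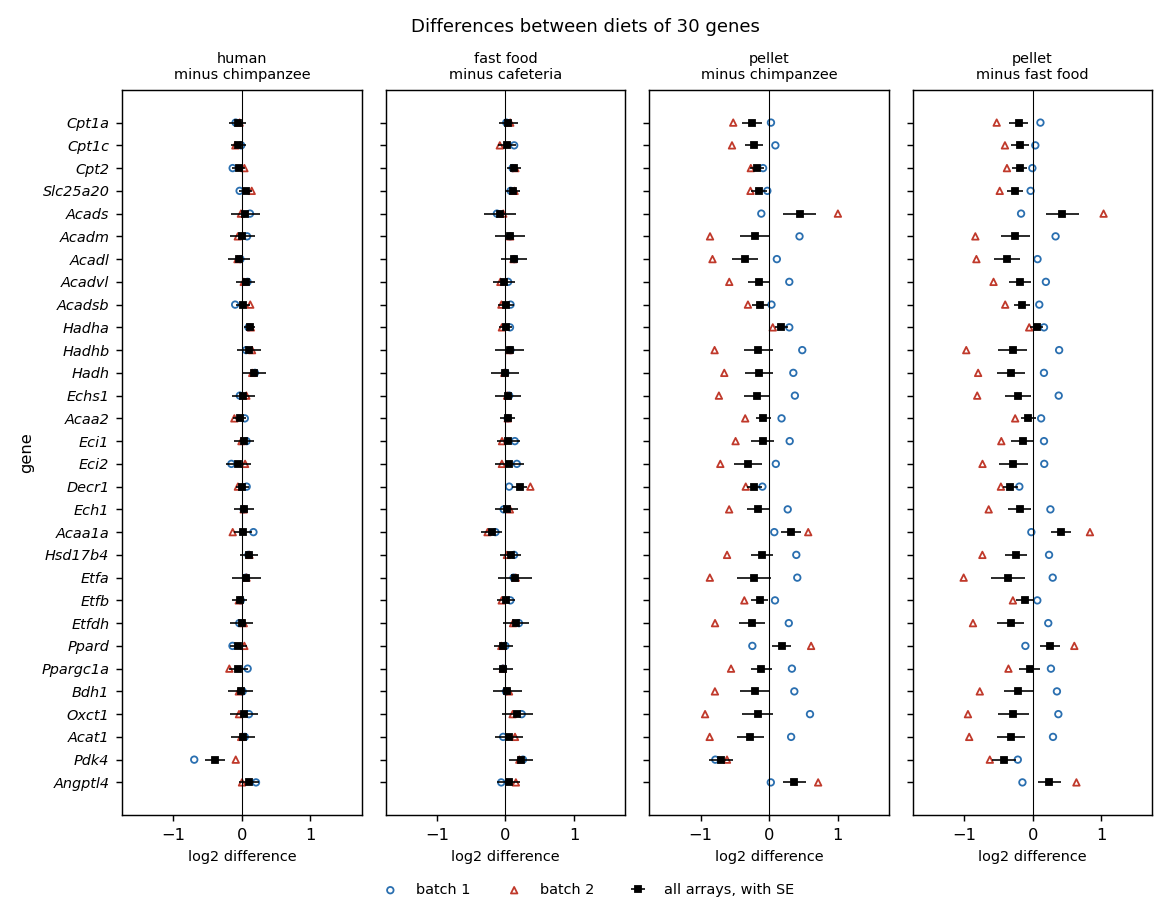
Log2 differences between diets (x axis) of the 30 tested genes (y axis, ordered by role) in 4 comparisons. Squares are the fit to all arrays with its SE, circles the difference within labelled batch 1 and triangles within labelled batch 2. Human minus chimpanzee lies near 0 except for Pdk4, and the pellet differences of most genes have opposite signs in the batches.

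The carnitine shuttle brings fatty acids into mitochondria: Cpt1a is the outer-membrane palmitoyltransferase and the rate-limiting step, Cpt1c its brain form, which sits in the endoplasmic reticulum of neurons, Cpt2 the inner-membrane transferase and Slc25a20 the carrier between them. Their log2 differences, human minus chimpanzee, ran from -0.06 to 0.05. Cpt1a was at 6.05 ± 0.11 (SD, n = 6) on the chimpanzee diet, 5.97 ± 0.10 on cafeteria and 6.01 ± 0.12 on fast food. Cpt1c was at 8.26 ± 0.21, 8.20 ± 0.13 and 8.22 ± 0.14 on these diets in the same order. The distances between these means were smaller than the SDs, which hold the batch difference as well as the spread between mice.

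The acyl-CoA dehydrogenases take the first electrons from chains of different length: Acads acts on short, Acadm on medium, Acadl on long and Acadvl on very long chains, and Acadsb on short branched chains. Their differences, human minus chimpanzee, ran from -0.04 to 0.05. Acadm was at 7.91 ± 0.28 (SD, n = 6) on chimpanzee, 7.88 ± 0.22 on cafeteria and 7.95 ± 0.22 on fast food. The later steps of the round fall to Echs1, the enoyl-CoA hydratase, Hadh, the dehydrogenase for shorter chains, Acaa2, the thiolase, and Hadha and Hadhb, the subunits of the trifunctional protein, which handles long chains. They ran from -0.03 to 0.17, with Hadh at 0.17 (SE 0.18) and Hadha at 0.11 (SE 0.08). The probe sets of Acadsb and Hadh, like that of Acaa1a below, are of a kind that can cross-hybridize.

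The auxiliary enzymes Eci1, Eci2, Decr1 and Ech1, which prepare unsaturated fatty acids for the round by moving or reducing double bonds, differed by -0.05 to 0.03. Etfa and Etfb, the subunits of electron transfer flavoprotein, and Etfdh, which hands its electrons to ubiquinone, differed by -0.03 to 0.06. In peroxisomes, Acaa1a is a thiolase and Hsd17b4 the multifunctional protein that follows the oxidase, and they differed by 0.02 and 0.10. Ppard, a nuclear receptor for fatty acids, and Ppargc1a, the coactivator of mitochondrial genes, both differed by -0.05 in this comparison.

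Ketone body use in brain needs Bdh1, which oxidizes hydroxybutyrate, Oxct1, which puts coenzyme A on acetoacetate and is the step that liver lacks, and Acat1, the thiolase that splits the product. Oxct1 was at 9.70 ± 0.45 (SD, n = 6) on chimpanzee, 9.64 ± 0.35 on cafeteria, 9.81 ± 0.37 on fast food and 9.53 ± 0.52 on pellets. Human minus chimpanzee was 0.03 (SE 0.20) for Oxct1, -0.02 (SE 0.18) for Bdh1 and 0.02 (SE 0.17) for Acat1. These SEs are from the fit to all arrays. They hold the spread of the pellet arrays, whose batch difference had the opposite sign in these genes, and are not the spread of the compared diets alone. The diets overlapped in each of these genes.

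Pdk4 had the smallest p of the 30 genes in the test over 4 diets (unadjusted p = 0.0041, adjusted p = 0.72, limma). It encodes a pyruvate dehydrogenase kinase that holds back the entry of pyruvate into the citric acid cycle, and in muscle, heart and liver it is known for its induction by fasting, fatty acids and glucocorticoids. On the chimpanzee diet it was at 5.27, 5.08 and 5.25 in batch 1 and 5.04, 4.64 and 4.54 in batch 2. On fast food it was at 4.48, 4.74 and 4.68 in batch 1 and 4.58, 4.77 and 4.89 in batch 2. On cafeteria it was at 4.05, 4.13 and 4.94 in batch 1 and 4.15, 4.53 and 4.96 in batch 2. On pellets it was at 4.22, 4.46 and 4.56 in batch 1 and 3.73, 4.57 and 4.08 in batch 2. The 3 chimpanzee arrays of batch 1 were thus above all arrays of the other diets, while in batch 2 the chimpanzee array at 5.04 was above those of the human diets and the other two lay among them.

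Pdk4 lies on the minus strand of chromosome 6 (5483351 to 5496278, GRCm38.p6), and its diet means ran, from the highest down, chimpanzee 4.97 ± 0.31, fast food 4.69 ± 0.15, cafeteria 4.46 ± 0.41 and pellet 4.27 ± 0.33 (SD, n = 6 each). Human minus chimpanzee was -0.39 (SE 0.15, unadjusted p = 0.017 and adjusted p = 1.00, limma), or 1.31-fold lower, with -0.70 in batch 1 and -0.09 in batch 2. When the pellet arrays were left out of the fit, the unadjusted p of this difference was 0.0097 and the adjusted p 0.53 (limma). Cafeteria minus chimpanzee was -0.51 (SE 0.18, unadjusted p = 0.0085, adjusted p = 1.00), with -0.82 and -0.19 in the batches. Pellet minus chimpanzee was -0.70 (SE 0.18, unadjusted p = 0.00062, adjusted p = 0.32), or 1.62-fold lower, with -0.78 and -0.61. Pellet minus fast food was -0.42 (SE 0.18, unadjusted p = 0.026, adjusted p = 0.23), with -0.22 and -0.62. These 4 comparisons share arrays and were named because the sign was the same in both batches, and none passed after adjustment over all features. Without pellet batch 2 replicate 1, pellet minus chimpanzee was -0.60 (adjusted p = 0.54), and with weights on the arrays it was -0.56 (adjusted p = 0.036). With each array centred on its median, pellet minus fast food was -0.26 (unadjusted p = 0.13).

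**Figure D2:**
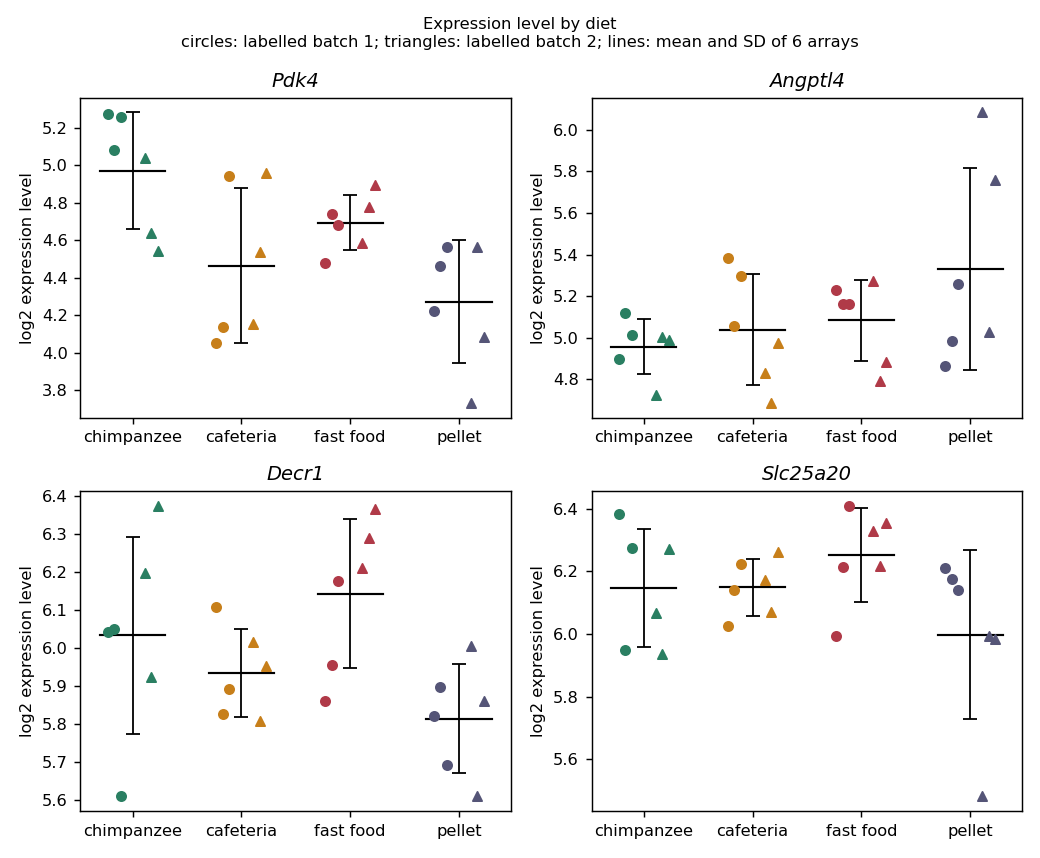
Log2 expression level (y axis, a separate scale for each gene) of Pdk4, Angptl4, Decr1 and Slc25a20 in each of the 24 arrays by diet (x axis). Points are arrays (circles batch 1, triangles batch 2), lines the mean and SD of 6 arrays. Pdk4 is highest in the 3 chimpanzee arrays of batch 1, at 5.08 to 5.27, and Angptl4 in a pair of pellet arrays of batch 2, at 5.76 and 6.08.

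The features whose levels ran most like that of Pdk4 over the 24 arrays, after the mean of each labelled batch was taken out, were Zfp729a (r = 0.81), Fosl2 (r = 0.81) and Nr4a3 (r = 0.80). Fosl2 encodes a Fos family transcription factor and Nr4a3 an orphan nuclear receptor. Over the 23 arrays without the one that stood apart these were 0.77, 0.77 and 0.74. The arrays share their diets and their processing, so the correlations are a description.

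The 250 bases before the start of Pdk4 and of Cpt1a, are shown because both genes are known in other tissues as targets of fatty acid receptors. They were taken from RefSeq on GRCm38.p6 and are written in the direction of transcription, with capitals on matches to AGGTCA, an element bound by nuclear receptors, or to CCAAT, searched on both strands (a match on the other strand reads TGACCT or ATTGG).
Pdk4 (chr6:5496279-5496528, minus strand): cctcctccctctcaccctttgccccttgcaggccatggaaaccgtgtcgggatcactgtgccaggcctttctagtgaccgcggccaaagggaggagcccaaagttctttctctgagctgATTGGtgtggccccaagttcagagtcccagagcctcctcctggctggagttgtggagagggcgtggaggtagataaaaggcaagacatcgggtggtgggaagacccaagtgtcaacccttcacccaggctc
Cpt1a (chr19:3323051-3323300, plus strand): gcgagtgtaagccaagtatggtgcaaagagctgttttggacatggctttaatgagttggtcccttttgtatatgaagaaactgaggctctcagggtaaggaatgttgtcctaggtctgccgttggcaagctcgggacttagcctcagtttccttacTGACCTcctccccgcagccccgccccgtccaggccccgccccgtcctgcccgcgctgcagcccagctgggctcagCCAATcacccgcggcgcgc
Pdk4 had no AGGTCA in this stretch and had CCAAT on the other strand. Cpt1a had both, in a window that lies within the annotated span of the gene, which begins at 3322326. Of 32851 windows of this length in the table, 14.02% hold AGGTCA and 33.9% hold CCAAT, and of the 30 windows of 29 of the 34 genes, 5 hold the former and 11 the latter. The direct repeat AGGNCANAGGNCA, the extended form of AGGTCA, TNAAGGTCA, and TGACGTCA, found in 0.338%, 1.14% and 1.55% of all windows, were in 0 of the 30. A match or its absence in this window says nothing of whether a factor binds the gene.

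Angptl4 encodes a secreted inhibitor of lipoprotein lipase and is, like Pdk4, a known target of fatty acid receptors. On the chimpanzee diet it was at 4.90, 5.12 and 5.01 in batch 1 and 4.73, 5.01 and 4.99 in batch 2. On pellets it was at 4.86, 4.99 and 5.26 in batch 1 and 6.08, 5.03 and 5.76 in batch 2. The high values were those of a pair of batch 2 pellet arrays, 1 of them the array that stood apart, and 3 of the other 4 lay within the range of chimpanzee. Pellet minus chimpanzee was 0.37 (SE 0.17, unadjusted p = 0.042, adjusted p = 0.45, limma), with 0.03 in batch 1 and 0.72 in batch 2. It was 0.21 (unadjusted p = 0.15) without the array that stood apart and 0.04 (unadjusted p = 0.71) with weights on the arrays. Human minus chimpanzee was 0.10 (SE 0.15). Its probe set is of a kind that can also report related transcripts.

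No gene of the 30 was called between fast food and cafeteria. In 24 of the 30 genes the mean was higher on fast food, or 80%, and 68% of all features were. None of the 30 genes passed, where 0% of all features passed, and at an unadjusted p under 0.05 there were 0 of the 30 and 0.658% of all features. With only the arrays of these diets 0 of the 30 passed, where 0% of all features did. In that fit 2 of the 30 had an unadjusted p under 0.05, for which no share of all features is given here. The median difference, fast food minus cafeteria, was 0.04 for the 30 genes and 0.05 for all features. The differences ran from -0.20, for Acaa1a, to 0.23, for Pdk4.

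Against chimpanzee each of the human diets was also tested alone. Fast food minus chimpanzee had 0 of 30 genes past the adjusted p (0% of all features), 0 at an unadjusted p under 0.05 (1.82% of all features) and a median of 0.04. Cafeteria minus chimpanzee had 0 of 30 past the adjusted p (0% of all features), 1, Pdk4, at an unadjusted p under 0.05 (1.42% of all features) and a median of -0.02. The spread of the pellet arrays is part of these fits as well. When the arrays of the other diets were left out, 0 of 30 passed in both comparisons (0.00723% and 0.0145% of all features).

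On pellets the mean of 25 of the 30 genes was the lowest of the 4 diets, but of 11 after a further quantile normalization and of 18 with each array centred on its median. These counts were not made over all features, whose median differences on pellets, given below, were also negative in the values as deposited. None of the differences passed, and their sign turned with the batch label in most groups of genes. Pellet minus fast food called 0 of 30 genes (0.0361% of all features), pellet minus chimpanzee 0 (0.00723%) and pellet minus cafeteria 0 (0%), and the test over all 4 diets 0 (0.0434%). At an unadjusted p under 0.05 these were 4, 3, 0 and 2 genes, or 13.3%, 10%, 0% and 6.67% of the 30, against 21.5%, 9.73%, 5.47% and 5.34% of all features. The median differences of the 30 genes were -0.21, -0.16 and -0.16, against -0.16, -0.14 and -0.12 for all features. These comparisons share the 6 pellet arrays. A further quantile normalization brought the medians of the 30 genes to 0.01, 0.01 and -0.01 (all features -0.01, -0.02 and -0.01), centring brought them to -0.04, -0.03 and -0.05 (all features -0.001, -0.016 and -0.006), and leaving out pellet batch 2 replicate 1 to -0.03, 0.03 and 0.01. With weights on the arrays they were 0.16, 0.17 and 0.14 (all features 0.06, 0.10 and 0.09), so that the sign turned. Within batch 1 those medians were 0.17, 0.23 and 0.22, and within batch 2 they were -0.55, -0.57 and -0.50. In batch 2 alone 24, 19 and 19 of the 30 genes passed, where 58.7%, 53% and 50.4% of all features did, and the 4-diet test called 13 (43.2%), while in batch 1 alone 0 of the 30 passed in these comparisons, where 0.0939%, 0.145% and 2.94% of all features did and 0.195% in the 4-diet test. With weights on the arrays pellet minus chimpanzee called 7 genes, 6 of them higher on pellets (12.1% of all features), pellet minus cafeteria 6, all higher (12.3%), and the 4-diet test 1, Hadhb (5.43%).

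The ketone body genes show the turn plainly. Pellet minus chimpanzee ran from 0.32 to 0.60 in batch 1 for Bdh1, Oxct1 and Acat1, and from -0.93 to -0.79 in batch 2. For the later steps of the round it ran from 0.18 to 0.49 in batch 1 and from -0.80 to 0.05 in batch 2. For electron transfer it ran from 0.09 to 0.41 and from -0.86 to -0.36. In the carnitine shuttle the batches were closer, at -0.09 to 0.09 and -0.54 to -0.27.

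Decr1, the dienoyl-CoA reductase for polyunsaturated chains, was named in pellet minus fast food, for which 1 sign in both batches was required. On fast food it was at 5.86, 5.96 and 6.18 in batch 1 and 6.21, 6.29 and 6.37 in batch 2. On pellets it was at 5.82, 5.90 and 5.69 in batch 1 and 6.01, 5.61 and 5.86 in batch 2. The lowest fast food arrays lay within the range of the pellet arrays. Pellet minus fast food was -0.33 (SE 0.11, unadjusted p = 0.0062, adjusted p = 0.23, limma), or 1.26-fold lower, with -0.19 in batch 1 and -0.46 in batch 2. After a further quantile normalization the difference was -0.14 (unadjusted p = 0.30), and with each array centred on its median it was -0.16 (unadjusted p = 0.20). If the pellet arrays were given each other's batch label, an alternative planned with these results known, the adjusted p was 0.047, and 12.3% of all features passed. Features most like Decr1 over the 24 arrays were Sec24d (r = 0.67), Adcyap1 (r = 0.64) and Exog (r = 0.64).

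Slc25a20, the carnitine carrier, had a lowest, median and highest level of 5.48, 6.07 and 6.21 on pellets and 5.99, 6.27 and 6.41 on fast food. Pellet minus fast food was -0.25 (SE 0.11, unadjusted p = 0.035, adjusted p = 0.23, limma), with -0.03 in batch 1 and -0.48 in batch 2. The lowest value was that of the array that stood apart, and without it in a fit of the 2 diets alone the difference was -0.15 (unadjusted p = 0.16). It was -0.10 after a further quantile normalization and -0.09 with arrays centred or with weights on the arrays. A second probe set of Slc25a20 had pellet and fast food means of 5.48 and 5.50.

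Acaa1a, the peroxisomal thiolase, had a positive difference on pellets. Its probe set is of a kind that can cross-hybridize, and the mouse has a close copy, Acaa1b, so its values may belong in part to that gene. It was at 7.20, 7.25 and 7.37 in batch 1 and 7.27, 7.32 and 7.30 in batch 2 on chimpanzee, and at 7.25, 7.32 and 7.49 in batch 1 and 8.46, 7.52 and 7.63 in batch 2 on pellets. The pellet arrays of batch 2 were above all chimpanzee arrays. Pellet minus chimpanzee was 0.32 (SE 0.15, unadjusted p = 0.038, adjusted p = 0.45, limma), with 0.08 in batch 1 and 0.57 in batch 2. Without the array that stood apart it was 0.15 (unadjusted p = 0.14), after a further quantile normalization 0.52, and with weights on the arrays -0.0017. Pellet minus fast food was 0.41, with -0.02 in batch 1 and 0.84 in batch 2. Features most like Acaa1a over 24 arrays were 9930021J03Rik (r = 0.96), Lmntd2 (r = 0.95) and Cblc (r = 0.95), and over the 23 arrays without the one that stood apart these were 0.86, 0.83 and 0.82.

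Between the labelled batches, unlike between diets, genes of this pathway were called, and in the values as deposited most that were higher in batch 2 on the non-pellet diets were lower in batch 2 on pellets. On the 3 non-pellet diets 9 of the 30 genes differed between batches (30%, against 33.3% of all features), 8 of them higher in batch 2 (26.7%, against 28.1%) and 1, Ppard, lower (3.33%, against 5.19%). On pellets 26 of 30 differed (86.7%, against 62.5% of all features), 4 higher (13.3%, against 11.3%) and 22 lower in batch 2 (73.3%, against 51.2%). The median of batch 2 minus batch 1 was 0.18 for the 30 genes on the non-pellet diets and -0.62 on pellets, against 0.14 and -0.42 for all features. The diet-batch interaction passed in 21 of 30 genes (70%, against 50.7% of all features), and among the non-pellet diets it passed in 0 of 30 (0% of all features), with 0 of 30 at an unadjusted p under 0.05 (0.585% of all features). Of the 30 genes, 17 were higher in batch 2 on each of the 3 non-pellet diets, and all 17 were lower in batch 2 on pellets, also without the array that stood apart. Another 3, Acads, Ppard and Angptl4, were lower in batch 2 on each non-pellet diet, and all 3 were higher on pellets. Their mean levels were 4.73, 4.39 and 5.10. Pdk4 and Cpt2, at 4.60 and 4.66, were lower in batch 2 on pellets, by -0.29 and -0.24. Acaa1a, at 7.38, was higher there, by 0.52. The pellet arrays of batch 2 had SDs over probe sets of 1.58 to 1.85, and the part of this spread in the pattern was not tested. After a further quantile normalization the interaction passed in 5 of the 30 (24.9% of all features) and the batch difference on the non-pellet diets in 5 (20.2%), of which 2 were higher, with a median of -0.04 for the 30 genes and -0.03 for all features, and with each array centred on its median the interaction passed in 12 (41.7%) and the median of the batch difference was 0.06. Under the first of these scalings 7 genes were higher in batch 2 on each non-pellet diet, all 7 lower on pellets, and 12 were lower on each, 5 of them higher on pellets. Under the second, 14 were higher, 13 of them lower on pellets, and 7 were lower, 4 of them higher on pellets. None of these counts of genes by sign was made over all features. The medians of all features, 0.14 and -0.42 in the values as deposited, turned sign as well, so the turn was not particular to these genes. Without pellet batch 2 replicate 1 the interaction passed in 13 (37.5% of all features) and the batch difference on the non-pellet diets in 19 (49.1%), and without pellet batch 1 replicate 1 or replicate 2 the interaction passed in 13 and 12 (37.5% and 34.3%).

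**Figure D3:**
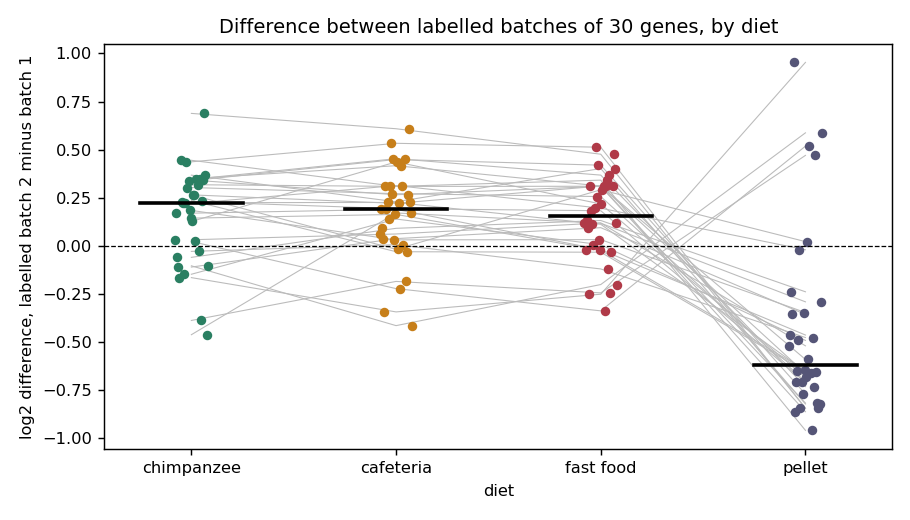
Log2 difference between the labelled batches (y axis, batch 2 minus batch 1) of the 30 tested genes on each diet (x axis). Points are genes, grey lines join a gene across diets, and black bars are medians. The points lie mostly above 0 on the 3 non-pellet diets and mostly below 0 on pellets in the values as deposited.

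Oxct1 had the smallest p between the batches on the non-pellet diets. In batch 1 it was at 9.77, 9.02 and 9.28 on chimpanzee, 9.20, 9.33 and 9.48 on cafeteria and 9.28, 9.43 and 10.01 on fast food. In batch 2 it was at 9.95, 10.10 and 10.07, at 9.97, 10.02 and 9.85, and at 9.91, 10.08 and 10.16 on the same diets. Every batch 2 array of these diets was above all their batch 1 arrays except the fast food array at 10.01. On pellets it was at 9.94, 10.18 and 9.73 in batch 1 and at 8.74, 9.26 and 9.32 in batch 2. Batch 2 minus batch 1 was 0.59 (SE 0.11, adjusted p = 0.0010, limma) on the non-pellet diets and -0.84 (SE 0.20, adjusted p = 0.0039) on pellets, and the interaction had an adjusted p of 0.00094. A pair of other Oxct1 probe sets that passed the minimum level gave 0.48 and 0.31 on the non-pellet diets and -0.79 and -0.88 on pellets. After a further quantile normalization Oxct1 was at 0.15 and -0.18, and with arrays centred at 0.46 and -0.50.

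**Figure D4:**
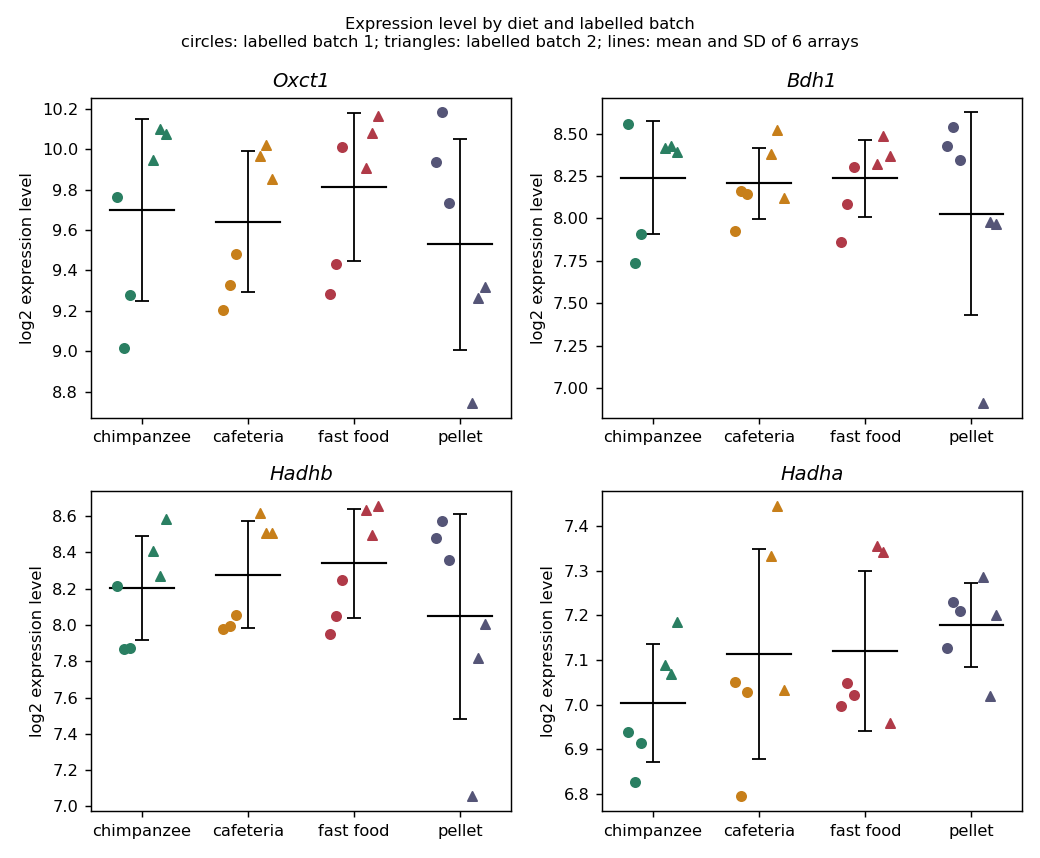
Log2 expression level (y axis, a separate scale for each gene) of Oxct1, Bdh1, Hadhb and Hadha in each of the 24 arrays by diet (x axis). Points are arrays (circles batch 1, triangles batch 2), lines the mean and SD of 6 arrays. In Hadhb batch 2 lies above batch 1 on the non-pellet diets and below it on pellets, and in Hadha the pellet batches overlap.

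Hsd17b4 had the smallest p in the interaction (adjusted p = 0.00073, limma), followed by Hadhb, Oxct1, Echs1 and Acat1. For Hsd17b4 batch 2 minus batch 1 was 0.36 (adjusted p = 0.0019, limma) on the non-pellet diets and -0.66 (adjusted p = 0.0029) on pellets. For Echs1 it was 0.40 and -0.77, and for Acat1 0.33 and -0.82. After a further quantile normalization these pairs shrank to 0.12 and -0.19 for Hsd17b4 and 0.12 and -0.25 for Echs1, and for Acat1, at -0.03 and -0.25, the first turned sign. Ppard was the 1 gene called lower on the non-pellet diets, at -0.27 (SE 0.09, adjusted p = 0.021), and it was 0.47 higher on pellets (adjusted p = 0.013).

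Hadha and Hadhb, whose products form 1 enzyme, gave different calls on pellets. Hadhb was at 8.48, 8.57 and 8.36 in pellet batch 1 and at 7.06, 7.82 and 8.01 in pellet batch 2, a difference of -0.84 (SE 0.17, adjusted p = 0.0030, limma). Hadha was at 7.13, 7.23 and 7.21 and at 7.29, 7.02 and 7.20, a difference of -0.02 (SE 0.13, adjusted p = 0.90). The batches did not overlap in Hadhb and did in Hadha. On the non-pellet diets both were called higher in batch 2, Hadhb by 0.49 (SE 0.10, adjusted p = 0.0015) and Hadha by 0.24 (SE 0.07, adjusted p = 0.017). The difference between the genes was not tested. On pellets Hadhb was at -0.30 and Hadha at 0.48 after a further quantile normalization, and at -0.50 and 0.32 with arrays centred, and on the non-pellet diets Hadha was at 0.02 after the former. A pair of other Hadhb probe sets gave -1.17 and -0.16 on pellets.

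These genes lie head to head on chromosome 5 with 272 bases between their start sites, so that 1 stretch of DNA stands before both. It is shown for this reason, and was chosen after the values were seen. The sequence is that of the 250 bases before Hadhb (RefSeq, GRCm38.p6), with no capitals because it held none of the motifs searched. Of these, 228 bases, from 30155003 to 30155230, also lie in the 250 bases before Hadha.
Hadhb (chr5:30155003-30155252, plus strand): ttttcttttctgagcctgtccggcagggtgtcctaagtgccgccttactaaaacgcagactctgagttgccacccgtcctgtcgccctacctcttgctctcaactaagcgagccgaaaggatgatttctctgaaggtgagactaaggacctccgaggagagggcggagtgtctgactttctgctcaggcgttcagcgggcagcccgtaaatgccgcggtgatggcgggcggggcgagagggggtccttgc

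**Figure D5:**
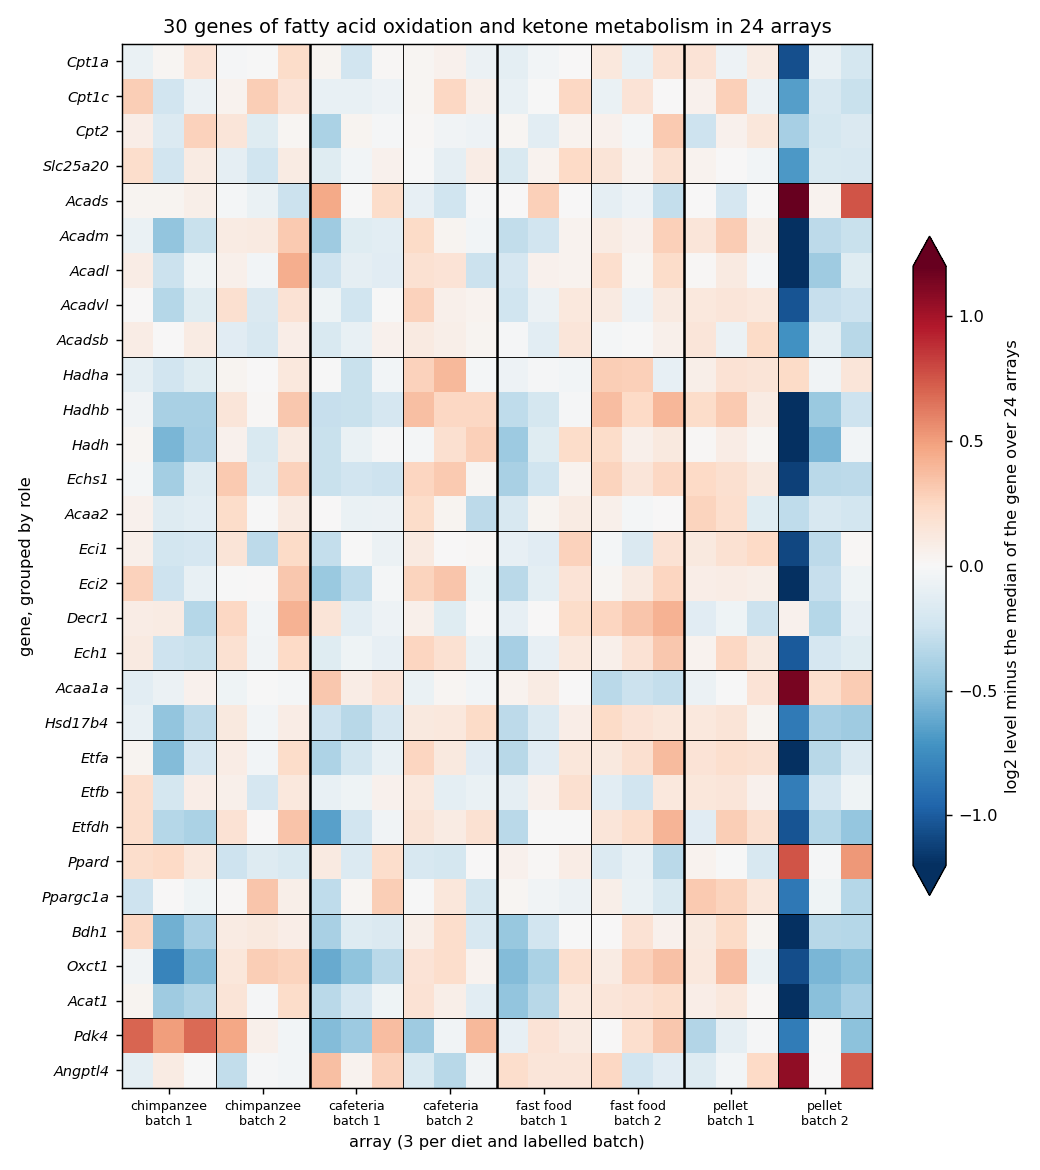
Log2 level minus the gene's median over 24 arrays (colour) of the 30 tested genes (y axis, grouped by role) in each array (x axis, 3 per diet and labelled batch). Pellet batch 2 replicate 1, the first column of the last block, is low in most genes and high in Acads, Acaa1a and Angptl4, and Pdk4 is high in the chimpanzee arrays of batch 1.

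The array that stood apart held the lowest of the 6 pellet values in 24 of the 30 genes and the highest in 6. Bdh1 was at 6.91 there and at 7.98 and 7.97 in the other pellet arrays of batch 2, and Etfa at 5.81 there. Acads had its highest value there, at 6.49. Markers of neurons, by the mean of 6 genes, ranged from 9.30 to 10.7 on pellets, 9.79 to 10.9 on chimpanzee, 9.82 to 10.8 on cafeteria and 9.96 to 10.8 on fast food. Markers of astrocytes ranged from 7.98 to 9.26 on pellets and from 8.60 to 9.30 on chimpanzee. None of the 6 neuron markers had a higher mean on pellets than on chimpanzee, with a median difference of -0.32, and of the 6 astrocyte markers 2 did, with a median of -0.17. None of these had an unadjusted p under 0.05 (limma). Of 5 microglia markers 0 were higher on pellets (median -0.13), of 4 for oligodendrocytes 1 (-0.10), of 3 for endothelium 1 (-0.18) and of 5 for choroid plexus and ependyma 2 (-0.01). The median of all features was -0.14. The mean of the 2 muscle markers that passed ranged from 5.23 to 6.20 on pellets and from 5.02 to 5.39 on chimpanzee. The part of these differences in the levels of the 30 genes was not tested.

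Beyond the 34 genes, 64 further genes of fatty acid uptake, activation, oxidation and its control were listed, of which 52 were tested. None of the 52 passed the adjusted p in any diet comparison. At an unadjusted p under 0.05 there was 1 in human minus chimpanzee (1.92%), 7 in pellet minus fast food (13.5%) and 3 in pellet minus chimpanzee (5.77%), against 2%, 21.5% and 9.73% of all features. Hacl1, the peroxisomal lyase of alpha oxidation, was the 1 gene in human minus chimpanzee, at 0.22 (SE 0.09, unadjusted p = 0.017), with 0.22 in both batches. For Hacl1, pellet minus chimpanzee was 0.37 (SE 0.10, unadjusted p = 0.00094, adjusted p = 0.38, limma), with 0.37 and 0.38 in the batches. Sirt1, a deacetylase that acts on the coactivator Ppargc1a, was at -0.53 in pellet minus fast food (SE 0.14, unadjusted p = 0.0013, adjusted p = 0.23), with -0.11 in batch 1 and -0.95 in batch 2. The interaction passed in 29 of the 52 (55.8%, against 50.7% of all features).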

How the data were processed

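Total RNA of 24 right hemispheres was hybridized to Affymetrix mouse genome expression arrays, 1 per mouse, and the deposited values are log2 probe set levels that the authors computed with rma from the affy package (background correction, quantile normalization and summary of probes; version not given in the sources used here). Array medians ranged from 4.02 to 4.32. Of 45101 probe sets, 64 controls were left out, 34945 had 1 gene in the annotation used, 932 several and 9160 none, and 1 probe set per gene, that with the highest mean, was kept. Features below the median level, 4.069, were left out, leaving 13839 (11645 genes and 2194 unannotated). limma 3.58.1 (R 4.3.3) was fitted to all 24 arrays with diet and labelled batch as terms, and with each diet and batch as its own group for the interaction and the batch differences. P-values were adjusted by Benjamini-Hochberg over all 13839 features, with a threshold of 0.05. Levels of different probe sets were not tested against each other. Littermates were spread over the diets per the methods, and the arrays are of separate mice. The number of arrays limits the precision.

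The genes and lists were chosen with earlier results of these data known. Named in each diet difference were the genes called, otherwise up to 5 in each direction with the smallest unadjusted p under 0.05 and 1 sign in both batches, and for the batch results the 5 called genes with the smallest p in each direction. Likeness was Pearson's r after batch means were removed. Alternatives were other normalizations, filters, probe set rules, array weights, single batches, a replicate block, the methods' two-way test, pellet batch labels swapped and leaving out each array. The fit was tested on simulated data with a batch shift common to all diets. Those data lacked the opposite batch difference of the pellet arrays and the array that stood apart. They cannot show how the fit does with these.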

Additional observations from a re-analysis of the deposited data

Results flagged for a closer look

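In 12 of 120 groups of 6 arrays (30 genes on 4 diets) 1 array lay far from the others by Dixon's test, where chance gives about 1 in 20 groups, or 6. Of the 12, 11 were pellet batch 2 replicate 1, the array that stood apart as a whole: it was lowest for Cpt1a at 4.94, Slc25a20 at 5.48, Acadm at 6.48, Acadl at 5.20, Acadvl at 6.47, Eci2 at 5.16, Ech1 at 6.61, Etfa at 5.81, Etfb at 6.56 and Bdh1 at 6.91, and highest for Acaa1a at 8.46. The other was cafeteria batch 1 replicate 1, lowest for Cpt2 at 4.31.

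The difference between labelled batches depended on diet in 21 of the 30 genes (interaction in limma, adjusted p under 0.05), where 50.7% of all features did. Among the non-pellet diets 0 of 30 passed (0% of all features), so these calls rest on the pellet arrays. Those arrays also ran against the batch label in the ribosomal RNA control. The interaction passed in 5 genes after a further quantile normalization (24.9% of all features) and in 12 with each array centred on its median (41.7%).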

How the results depend on the processing

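None of the 30 genes passed an adjusted p of 0.05 in human, fast food or cafeteria minus chimpanzee or in fast food minus cafeteria under the alternatives tried. In labelled batch 2 alone pellet minus fast food, chimpanzee and cafeteria called 24, 19 and 19 genes (58.7%, 53% and 50.4% of all features) and the 4-diet test 13 (43.2%). With array weights pellet minus chimpanzee called 7 genes, 6 of them higher on pellets (12.1% of all features), pellet minus cafeteria 6 (12.3%) and the 4-diet test 1, Hadhb (5.43%), and Acaa1a in pellet minus chimpanzee turned to -0.0017. With batch labels 1 and 2 swapped among the pellet arrays, pellet minus fast food called 2, Acaa1a and Decr1 (12.3% of all features). The interaction was called in 5 genes after a further quantile normalization (24.9% of all features) and in 12 with each array centred on its median (41.7%), and the batch difference on the non-pellet diets in 5 after the former (20.2%), 2 of them higher. Leaving out 1 array gave 0 genes in each diet comparison, with 0% to 0.065% of all features. For the interaction it gave 12 to 22 genes, with 34.3% to 62.8% of all features. These were 13 without pellet batch 1 replicate 1, 12 without pellet batch 1 replicate 2 and 13 without pellet batch 2 replicate 1. For the batch difference it gave 7 to 19 genes, with 24.9% to 49.1% of all features (19 without pellet batch 2 replicate 1). The cause was not tested. A covariate for the SD of each array and a fit without the array that stood apart, both chosen after seeing the data, called 0 genes in the diet comparisons. For these fits no share of all features is given here. Arrays with the same replicate number did not pair (36 pairs, correlations of deviations from -0.512 to 0.484, median -0.023). With the number as a replicate block 0 genes were called in each diet comparison, where 0% to 0.0289% of all features were. The methods' two-way test, at their unadjusted threshold, called Pdk4 over 4 diets (2.09% of the features left) and in pellet minus chimpanzee (1.06%), Decr1 in pellet minus fast food (1.58%) and Acaa1a in fast food minus cafeteria (1.10%), and after Benjamini-Hochberg 0 genes. This test first drops features with an interaction, and a dropped gene could not be called. Dropped were 22 of the 30 genes over 4 diets, and 15, 15 and 20 in pellet minus fast food, chimpanzee and cafeteria. Of all features 7815 were dropped over 4 diets, with 6024 left. In the pellet comparisons, in the same order, 6946, 6278 and 7516 features were dropped, with 6893, 7561 and 6323 left. Of the 30 genes, 2 each were dropped in human, fast food and cafeteria minus chimpanzee, with Pdk4 among them for fast food. In fast food minus cafeteria 0 were. Of all features 510, 460, 330 and 188 were dropped in these comparisons, in the same order. Of 15 further probe sets of 8 of the genes, 14 had the same sign of the batch difference on pellets, 15 on the other diets and 9 of human minus chimpanzee.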
